A study of Mus musculus with 4 samples.

Results

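The genes described here mark the epithelium of the choroid plexus, the frond of tissue inside the brain ventricles that secretes cerebrospinal fluid. They were taken from a fixed list of 32 gene symbols, and 30 of them had a named probe set among the 19505 named genes of the array. The other listed genes, Enpp2 and Prlr, had no probe set under those names and were not analysed here. The tissue was brain cortex from SAMP8 males, a senescence-accelerated mouse strain with early memory loss. The TCQA group was dosed orally with TCQA, a compound that the labels give only as this abbreviation, at 5 mg/kg per day over 1 month, starting when the mice were 11 months old. The control group received MilliQ water over the same month, and all mice had been kept in single cages for 4 months beforehand, since they were 7 months old. Each group had 2 arrays. Whether the arrays within a group represent different mice is not stated in the labels, so p-values cover only the spread between samples that may be technical replicates.

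The choroid plexus lies outside the cortex, attached to the walls of the ventricles. Its epithelium takes up ions and water from leaky capillaries and moves them into the ventricle, and its tight junctions form the barrier between blood and cerebrospinal fluid. It makes transthyretin, the carrier of thyroxine and of retinol-binding protein encoded by Ttr, at a very high level, so a small amount of the tissue gives a strong Ttr signal. In a dissected cortex sample the list is read as a measure of choroid plexus in that sample, although members such as Cab39l, Sulf1, Ace and Car14 are also expressed by other brain cells. Fewer epithelial cells and less RNA per cell cannot be told apart in such bulk samples.

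All values are log2 signals, in which a difference of 1 is a doubling, and a gene's level is compared between arrays and not with that of another gene. The arrays were close over all genes, with pairwise correlations of 0.991 to 0.993 across 22206 gene probe sets, which are not independent replicates. Array medians were 7.15 for each TCQA array and 7.12 and 7.17 for the control arrays. The median negative control probe set, which marks the level of dim genes, was 7.21 and 7.23 on the TCQA arrays and 7.32 and 7.17 on the control arrays. Of the 30 genes, 6 lay above that median on all 4 arrays, 9 on some of them and 15 on none, so the size of many differences below is uncertain. By mean signal over the arrays, 9 of the 30 genes lay above the median negative control, against 10971 of all 22206 gene probe sets. The 10 measured markers of cortical excitatory neurons had a mean log2 signal of 13.33 and 12.86 on the TCQA arrays and 13.44 and 13.22 on the control arrays. Such a signal does not show that neighbouring regions were absent from the samples.

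Choroid plexus signal differed more between the control arrays than between the groups for 26 of the 30 genes, which was also the case for 57.6% of all probe sets. Ttr had log2 signals of 12.23 and 14.97 in TCQA replicates 1 and 2, against 7.49 and 16.42 in control replicates 1 and 2. Both TCQA arrays lay between the control arrays, so the groups overlapped completely. The TCQA arrays were 6.70-fold apart and the control arrays at least 488-fold, a lower bound since control replicate 1 was not clearly above background. The range of Ttr over the 4 arrays, 8.93, ranked 1 among all 22206 gene probe sets. In control replicate 1 the Ttr signal was higher than that of 53.3% of the negative control probe sets, near their middle, while on the other 3 arrays it was higher than that of 97.4% to 99.5% of them.

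The rest of the list ordered the arrays as Ttr did in its mean, while 8 of its 29 genes did so singly (4.03% of all probe sets). TCQA replicate 2 was highest for 11 of the 30 genes, and for 5676 of all 22206 gene probe sets. The mean log2 signal over the 29 genes other than Ttr was 6.43 and 6.77 in TCQA replicates 1 and 2, against 6.19 and 6.89 in control replicates 1 and 2. Of the 30 genes, 19 had their lowest signal in control replicate 1, against 27.1% of all gene probe sets, and 15 their highest in control replicate 2, against 24.2%. Without Ttr these counts were 18 and 14 of 29. The arrays of each group could be compared separately. Control replicate 2 was above control replicate 1 for 25 of the 30 genes (51.8% of all probe sets), and TCQA replicate 2 above TCQA replicate 1 for 25 as well (49.7%), with 22 genes doing both (26.4%). With Ttr left out, the counts were 24, 24 and 21 of 29. Among 11 markers that best define the epithelium (Ttr, Folr1, Kcnj13, Clic6, Kcne2, Otx2, Aqp1, Tmem72, Calml4, Sostdc1 and Cldn2), 8 were lowest in control replicate 1 and 8 highest in control replicate 2. Their mean log2 signal, Ttr included, was 6.87 and 7.41 in TCQA replicates 1 and 2, against 6.17 and 7.74 in control replicates 1 and 2. Ttr itself is counted among the 11 and widens the gaps in that mean. The median gap over the 30 genes was 0.55 between the control arrays and 0.33 between the TCQA arrays, against 0.01 and 0.00 over all gene probe sets. The median range over the 4 arrays was 0.72 for the 30 genes and 0.47 for all probe sets, and 11 of the 30 had a range of at least 1, as did 7.31% of all probe sets.

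**Figure D1:**
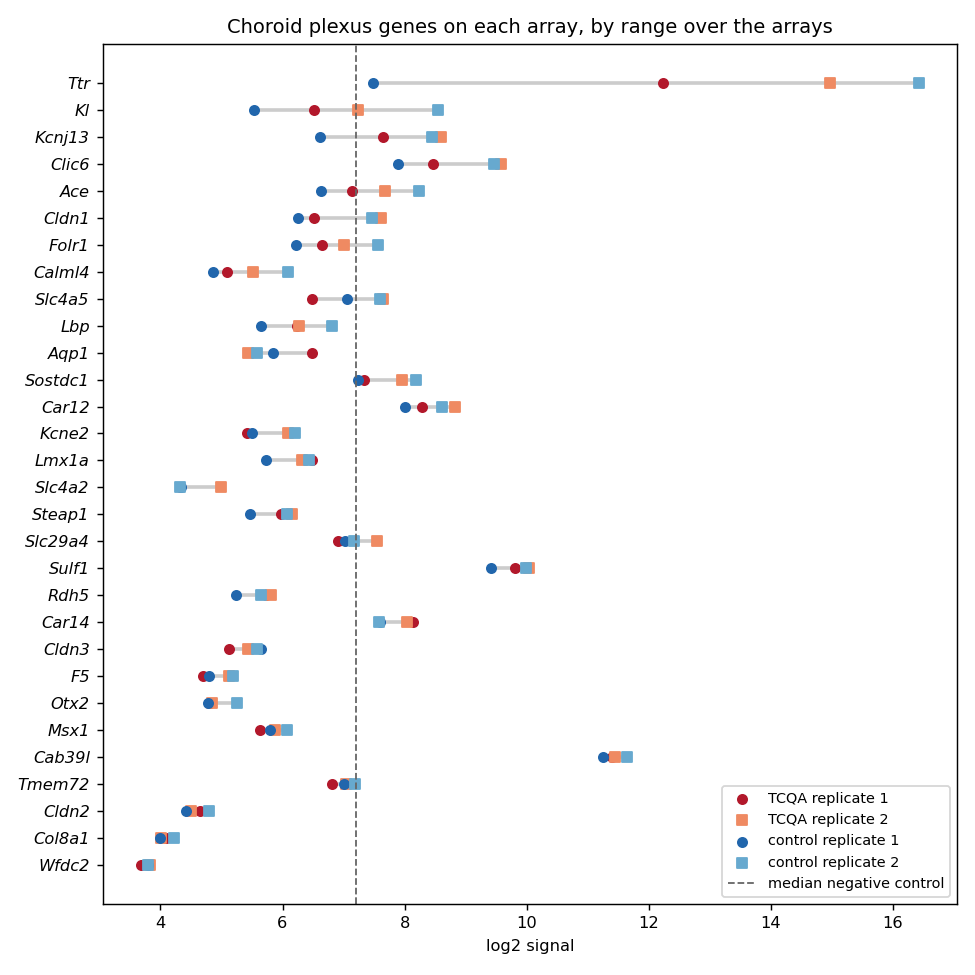
Log2 signal (horizontal axis) of the 30 choroid plexus genes on each array, ordered by the range over the 4 arrays, with TCQA arrays in red and orange and control arrays in dark and light blue. For 19 genes control replicate 1 is lowest, and Ttr spans 7.49 to 16.42, while the genes at the bottom vary little. The dashed line is the median negative control probe set.

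Next to Ttr, the widest range was that of Kl, which encodes klotho, a membrane protein that is shed into the cerebrospinal fluid and serves as co-receptor for FGF23. Kl was at 6.52 and 7.24 in TCQA replicates 1 and 2, against 5.53 and 8.54 in control replicates 1 and 2. The TCQA arrays again lay between the control arrays, with a range of 3.01. Control replicate 1 and TCQA replicate 1 lay below the negative control median, so the size of that range is uncertain. The order of the 4 arrays seen for Ttr was found for 8 of the other 29 genes and for 4.03% of all probe sets. Taken with a range of at least 2, it was found for 2 of the 22205 probe sets other than Ttr (0.0135% of all, with Ttr included). These were Kl and Ecrg4, a gene outside the 30 that encodes a secreted peptide precursor of the choroid plexus. Ecrg4 was at 4.51 and 5.58 in the TCQA arrays and at 4.29 and 6.52 in the control arrays, below the negative control median on each array. The order alone was shared by 781 named genes, and the next widest gene in the same order had a range of 1.96.

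**Figure D2:**
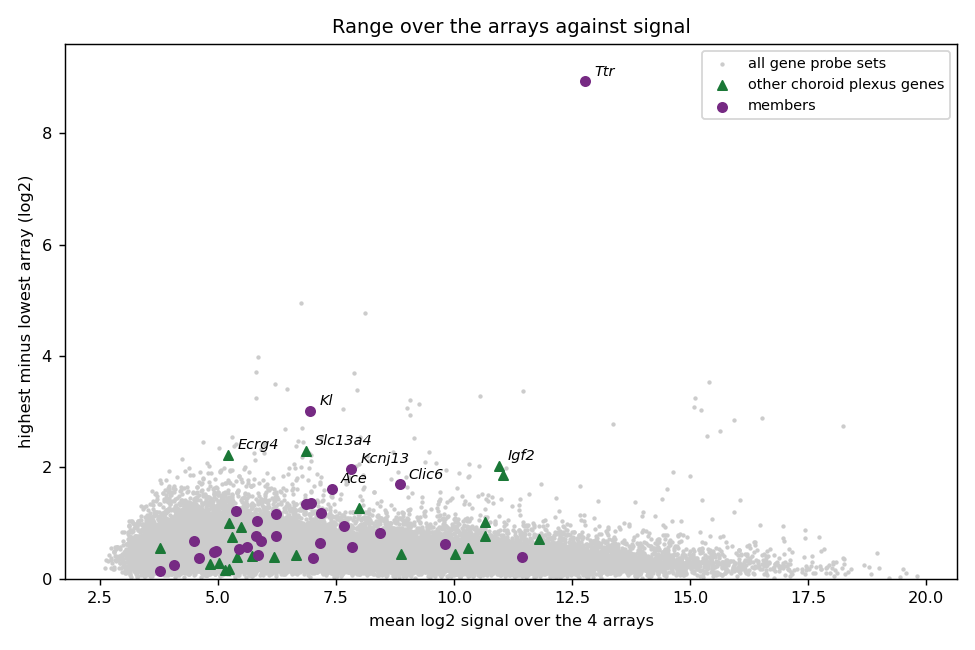
Range over the 4 arrays (highest minus lowest log2 signal, vertical axis) against mean log2 signal (horizontal axis) for all 22206 gene probe sets in grey, the 30 choroid plexus genes as purple circles and 23 other choroid plexus genes as green triangles. Ttr stands at 8.93, above every other probe set, Kl at 3.01 and Ecrg4 at 2.22.

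Sequence upstream of the transcription start is shown for the genes with a range of at least 1.5 that had an entry in RefSeq's promoter table, as the members that differed most between arrays. Ttr is named only. The runs are the 250 bases before the start, on the gene's strand, in build GRCm38.p6. Kl is at chr5:150952357-150952606 on the plus strand, Kcnj13, the inward rectifier potassium channel Kir7.1, at chr1:87394730-87394979 on the minus strand, and Ace, the angiotensin-converting enzyme, at chr11:105967698-105967947 on the plus strand. Capitals mark the letters TAATCC or their reverse complement GGATTA, the site that the transcription factor OTX2 of the choroid plexus prefers.
Kl: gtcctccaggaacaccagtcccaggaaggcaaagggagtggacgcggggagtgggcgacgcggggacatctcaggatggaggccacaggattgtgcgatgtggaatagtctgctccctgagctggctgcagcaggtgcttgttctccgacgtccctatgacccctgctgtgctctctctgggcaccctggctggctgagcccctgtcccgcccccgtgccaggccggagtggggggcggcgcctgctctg
Kcnj13: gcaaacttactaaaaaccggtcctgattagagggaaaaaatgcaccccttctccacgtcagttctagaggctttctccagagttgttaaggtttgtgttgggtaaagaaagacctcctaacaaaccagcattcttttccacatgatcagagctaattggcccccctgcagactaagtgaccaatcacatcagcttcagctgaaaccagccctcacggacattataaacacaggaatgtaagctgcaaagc
Ace: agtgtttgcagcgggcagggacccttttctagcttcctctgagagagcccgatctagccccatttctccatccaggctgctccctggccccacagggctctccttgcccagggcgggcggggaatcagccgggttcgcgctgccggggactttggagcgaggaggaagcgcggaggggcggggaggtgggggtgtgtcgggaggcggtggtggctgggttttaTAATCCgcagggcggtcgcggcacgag
Of these runs only that of Ace holds the letters, starting 27 bases before the start, and a further annotated start of Ace does not have them. In the same 250-base window the letters were found, on either strand, upstream of at least 1 start of 3 of the 24 members with an entry (Ace, Car14 and Otx2), and in 6.25% of all 32851 promoters of the table. Per gene the share over the whole table was 7.21%. A match to these letters is a description of the sequence, not a site shown to be bound.

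Among the secreted proteins, of which 7 were measured with Ttr, 5 were lowest in control replicate 1 and 5 highest in control replicate 2. Sostdc1, a secreted antagonist of BMP and Wnt signals, was at 7.33 and 7.95 in the TCQA arrays and at 7.23 and 8.18 in the control arrays. Lbp, which binds bacterial lipopolysaccharide, was at 6.23 and 6.26 in the TCQA arrays and at 5.64 and 6.80 in the control arrays, all below the negative control median. In both genes the control arrays enclosed the TCQA arrays, as they did for Ttr. Sulf1, a sulfatase that edits heparan sulfate outside the cell, was at 9.81 and 10.03 with TCQA and at 9.41 and 9.98 in control. F5, coagulation factor V, Col8a1, a short-chain collagen, and Wfdc2, a whey acidic protein family member, were dim, and their ranges were 0.50, 0.24 and 0.14.

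The genes of ion, water and bicarbonate transport, which carry out fluid secretion, were less uniform: 3 of 8 were lowest in control replicate 1 and 1 was highest in control replicate 2. Kcnj13 was at 7.65 and 8.60 in TCQA replicates 1 and 2, against 6.62 and 8.45 in control replicates 1 and 2. Clic6, an intracellular chloride channel protein, was at 8.46 and 9.59 with TCQA and at 7.89 and 9.47 in control. For both, the replicate 2 arrays of the groups lay close together and above the replicate 1 arrays. Slc4a5, the sodium bicarbonate cotransporter NBCe2, was at 6.47 and 7.65 with TCQA and at 7.05 and 7.59 in control. Kcne2, a potassium channel subunit, was at 5.42 and 6.09 with TCQA and at 5.50 and 6.20 in control, and so was dim and split by replicate as well. Car12, a membrane-bound carbonic anhydrase, was at 8.29 and 8.82 with TCQA and at 8.0 and 8.62 in control. The water channel gene Aqp1 went the other way, at 6.48 and 5.43 with TCQA and at 5.84 and 5.58 in control, and was below the negative control median on each array. Slc4a2, an anion exchanger, was dim with a range of 0.68.

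Of the 9 measured receptors, other transporters and enzymes, each was higher in replicate 2 than in replicate 1 of both groups. Lowest was control replicate 1 for 7 of them and highest was control replicate 2 for 6. Folr1, the folate receptor that carries folate into cerebrospinal fluid, was at 6.65 and 7.00 in the TCQA arrays, against 6.22 and 7.57 in the control arrays. Ace was at 7.14 and 7.68 with TCQA and at 6.62 and 8.24 in control. Calml4, a calmodulin-like protein, was at 5.09 and 5.52 with TCQA and at 4.87 and 6.08 in control. These 3 genes kept the order of Ttr, with the TCQA arrays inside the control arrays. The STEAP family gene Steap1, the monoamine transporter gene Slc29a4 and the retinol dehydrogenase gene Rdh5 had ranges of 0.57 to 0.68. Cab39l, a partner of the kinase LKB1 with a high signal on every array, and the membrane protein gene Tmem72 had ranges of 0.39 and 0.38.

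The claudins seal or open the junctions between epithelial cells, and only Cldn1 varied by more than 1. Cldn1, a sealing claudin, was at 6.52 and 7.61 in TCQA replicates 1 and 2, against 6.25 and 7.47 in control replicates 1 and 2. Cldn2, which forms a pore for cations and water, was dim at 4.66 and 4.50 with TCQA and 4.42 and 4.79 in control. Cldn3 was at 5.12 and 5.44 with TCQA and at 5.65 and 5.59 in control, also dim. The transcription factors that specify the epithelium and the dorsal midline gave little signal. Otx2 was at 4.82 and 4.85 with TCQA and at 4.77 and 5.25 in control, and Msx1 had a range of 0.43. Lmx1a was at 6.49 and 6.31 with TCQA and at 5.73 and 6.43 in control, with control replicate 1 standing lowest.

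The comparison of TCQA with control asked whether choroid plexus transcripts differed with treatment. None of the 30 genes passed limma with Benjamini-Hochberg adjustment (0 of 30, smallest adjusted p = 0.787), and none of the 22206 probe sets did (0%, smallest adjusted p = 0.698). At an unadjusted p under 0.05, 1 of the 30 was called, against 6.24% of all probe sets (1386). It was higher with TCQA (3.38% of all probe sets) and 0 were lower (2.86%), and with a fold over 2 as well, 0 were called (0.374%). The median difference over the 30 genes was -0.02 and over all probe sets 0.01, with 14 of 30 higher in mean with TCQA (51.1% of all probe sets). The groups did not overlap for 3 of the 30 genes, against 36.6% of all probe sets, and 2 of these were higher (18.9%) and 1 lower (17.8%) with TCQA.

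The gene called at the unadjusted threshold was Car14, a membrane-bound carbonic anhydrase that glia and neurons also express. It was at 8.14 and 8.04 in the TCQA arrays and at 7.60 and 7.58 in the control arrays, so that the groups were apart and the arrays of each group close. The means were 8.09 ± 0.08 (SD, n = 2) with TCQA and 7.59 ± 0.02 (SD, n = 2) in control. The log2 difference was 0.50, or 1.41-fold (95% confidence interval 0.08 to 0.92, limma adjusted p = 0.787). With any array left out the difference stayed between 0.44 and 0.55 but the unadjusted call was lost, with unadjusted limma p of 0.0555 to 0.109. Car14 did not follow the order of Ttr. The others with groups apart were Rdh5, at 5.73 and 5.81 with TCQA and 5.25 and 5.65 in control (difference 0.32), and Cldn3 (difference -0.34), both dim.

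For Ttr the mean was 13.60 ± 1.94 (SD, n = 2) with TCQA and 11.96 ± 6.31 (SD, n = 2) in control. The difference of 1.65 had a 95% confidence interval of -4.79 to 8.08 (limma adjusted p = 0.936). Its direction rested on single arrays: leaving out control replicate 1 gave -2.82 and leaving out control replicate 2 gave 6.11, while leaving out TCQA replicates 1 and 2 gave 3.02 and 0.27. On means of linear signals, where the brightest array weighs most, it was -1.25. The Kl difference was -0.15 (95% confidence interval -2.32 to 2.02), and -1.66 without control replicate 1 against 1.36 without control replicate 2. Kcnj13 differed by 0.59 (95% confidence interval -0.89 to 2.06), and by -0.33 without control replicate 1 and 1.5 without control replicate 2. Leaving out control replicate 1 took the Folr1 difference of -0.07 to -0.74, and leaving out control replicate 2 took it to 0.61. Of the other genes with a range of at least 1, the difference was 0.34 for Clic6, 0.20 for Cldn1, 0.25 for Aqp1, -0.26 for Slc4a5, -0.17 for Calml4, -0.02 for Ace and 0.02 for Lbp. Over the 11 genes with such a range the limma adjusted p lay between 0.890 and 0.996. For each of these 11 genes the sign of the difference turned when at least 1 of the arrays was left out. The differences of the remaining genes ran from -0.34 for Cldn3 to 0.33 for Slc4a2. The median difference of the list moved to -0.29 when control replicate 1 was left out and to 0.43 when control replicate 2 was.

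**Figure D3:**
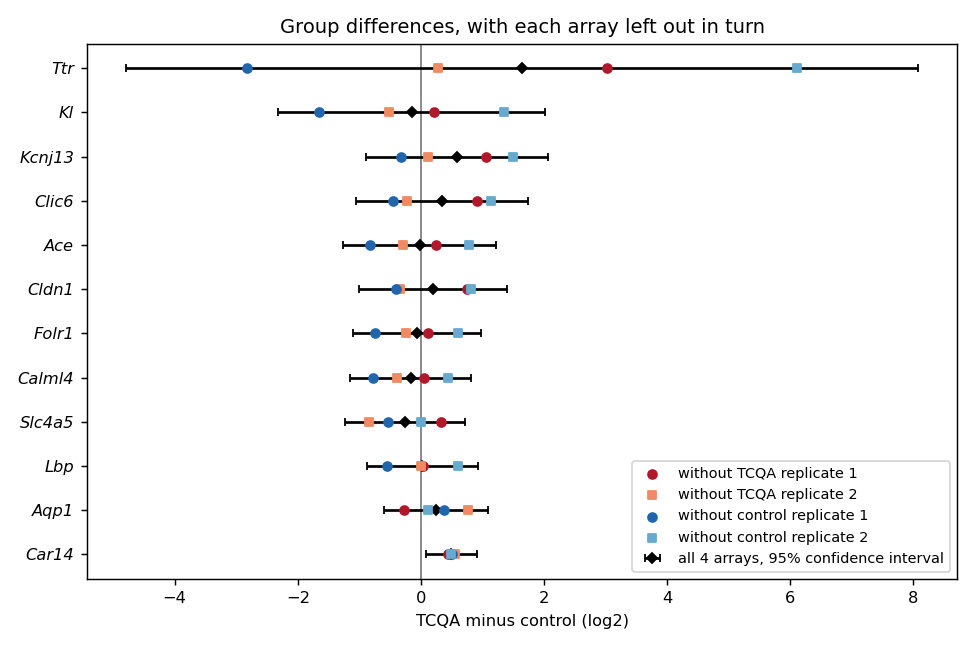
TCQA minus control differences (log2, horizontal axis) of the 11 genes with a range of at least 1 and of Car14, as black diamonds with 95% confidence intervals from limma, and with each array left out in turn as coloured points. The Ttr difference runs from -2.82 to 6.11 with the array left out, while that of Car14 stays between 0.44 and 0.55 with its unadjusted call lost each time.

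Further lists from general knowledge were read beside these genes. Of 25 other choroid plexus genes 23 were measured, and their mean log2 signal was 7.25 and 7.53 in TCQA replicates 1 and 2, against 6.95 and 7.54 in control replicates 1 and 2. Lowest was control replicate 1 for 12 of the 23 (27.1% of all probe sets) and highest was control replicate 2 for 11 (24.2%). Slc13a4, a sulfate transporter, was at 7.18 and 7.58 with TCQA and at 5.28 and 7.39 in control. Igf2, a growth factor that the choroid plexus and the meninges both make, was at 11.06 and 11.60 with TCQA and at 9.57 and 11.56 in control. For both, control replicate 1 alone stood low. Vat1l, which neurons also express, was at 10.78 and 12.11 with TCQA and at 10.25 and 10.99 in control. Spint2, a protease inhibitor, was the 1 gene of the 23 at an unadjusted p under 0.05 (6.24% of all probe sets), with a difference of 0.90 (limma adjusted p = 0.787). A list of 17 more genes of ion transport and its control, most of them used by neurons and glia too, had 14 measured and a median range of 0.38, and 1 of the 14 passed the unadjusted threshold (6.24% of all probe sets). That gene was the chloride channel gene Clcn2, at 8.14 and 7.92 with TCQA and 8.95 and 8.55 in control.

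Of the markers of tissues that border the cortex and the ventricles, the meningeal ones moved with part of the pattern. Of 19 meningeal fibroblast genes, 15 were lowest in control replicate 1 (27.1% of all probe sets). Control replicate 2 was above control replicate 1 for 15 (51.8%), with a median gap of 0.56. Between the TCQA arrays the median gap was 0.02, with 10 of 19 higher in replicate 2. The summed linear signal of the 18 genes other than Ptgds was 5025 and 5248 in the TCQA arrays and 2936 and 4688 in the control arrays. Ptgds, prostaglandin D synthase, made up most of the sum of all 19 and is also made by the choroid plexus. It was at 14.76 and 15.53 with TCQA and at 13.61 and 14.62 in control. Ogn, a small matrix proteoglycan, was at 8.45 and 8.92 with TCQA and at 6.90 and 7.46 in control, and Dcn, the proteoglycan decorin, at 10.06 and 10.01 with TCQA and 8.67 and 10.62 in control. A higher mean with TCQA was found for 18 of the 19 (51.1% of all probe sets), with a median difference of 0.39. Of the 19, 5 had an unadjusted p under 0.05 and 10 had groups that did not overlap, all higher with TCQA (3.38% and 18.9% of all probe sets), and 0 passed the adjusted threshold by limma. Of 20 ependymal and cilia genes, which line the ventricle, 9 were lowest in control replicate 1 (27.1% of all probe sets). Highest in control replicate 2 were 5 of the 20 (24.2%), near the share over all probe sets. Control replicate 2 was above control replicate 1 for 12 of them (51.8%), and most were dim. Fenestrated endothelium, the leaky vessel type of the choroid plexus, was read from 4 genes, all below the median of the gene probe sets. None of the 4 had its lowest signal in control replicate 1 (0 of 4), and control replicate 2 was above control replicate 1 for 1, Plvap, the diaphragm protein of these vessels. Plvap was at 4.97 and 5.42 with TCQA and at 5.02 and 5.50 in control. Col15a1, a basement membrane collagen and the widest of the 4 in range, was at 4.71 and 5.45 with TCQA and at 4.54 and 4.42 in control. The part of these tissues in the choroid plexus result was not tested.

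Cortical neuron markers ran opposite within each group. Of 10 measured, 9 were lower in TCQA replicate 2 than in TCQA replicate 1 and 9 were lower in control replicate 2 than in control replicate 1, with median gaps of -0.41 and -0.29. Their lowest array was TCQA replicate 2 for 7 of 10, so they did not order the 4 arrays as Ttr did. Neurod6, a transcription factor of excitatory neurons, was at 11.76 and 10.46 with TCQA and at 11.31 and 11.43 in control. It was the 1 marker of the 10 that was higher in control replicate 2 than in control replicate 1. Nrgn, the spine protein neurogranin, was at 15.34 and 14.89 with TCQA and at 15.96 and 15.67 in control. Between the groups, 3 of the 10 neuron markers had an unadjusted p under 0.05, all lower with TCQA (2.86% of all probe sets): Nrgn by -0.70 and the transcription factor genes Neurod2 by -0.50 and Cux2 by -0.48. The groups did not overlap for 4 of the 10, all lower (17.8%), the list's median difference was -0.27, and 0 passed the adjusted threshold by limma.

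Of the remaining lists, thalamic and hippocampal markers held 3 of 10 with a range of at least 1 (7.31% of all probe sets), each highest in TCQA replicate 2. Tcf7l2, a transcription factor of thalamic neurons, was at 9.71 and 11.54 with TCQA and at 9.74 and 10.18 in control. Slc17a6, the vesicular glutamate transporter of thalamic neurons, was at 9.82 and 11.18 with TCQA and at 9.54 and 9.68 in control. Prkcd, a protein kinase C, was at 9.81 and 10.17 with TCQA and at 8.75 and 10.09 in control, the array order of Kcnj13 and Clic6. Control replicate 2 was above control replicate 1 for 8 of the 10. At an unadjusted p under 0.05 was 1 of the 10 (6.24%), the peptide gene Grp, with a difference of -0.53 (limma adjusted p = 0.787). Barrier endothelium markers had a median range of 0.45, and 3 of 12 had an unadjusted p under 0.05, all higher with TCQA (3.38%). These were Slc2a1, the glucose transporter, with a difference of 0.57, the organic anion transporter gene Slco1a4 with 0.47 and Ly6c1 with 0.46. The groups did not overlap for 9 of the 12 (36.6%), 7 of them higher, the list's median difference was 0.13, and 0 passed the adjusted threshold by limma. Oligodendrocyte markers had a median range of 0.45, with 0 of 10 at an unadjusted p under 0.05 by limma. The part of cortical and vascular composition or of neighbouring regions in the choroid plexus result was not tested.

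**Figure D4:**
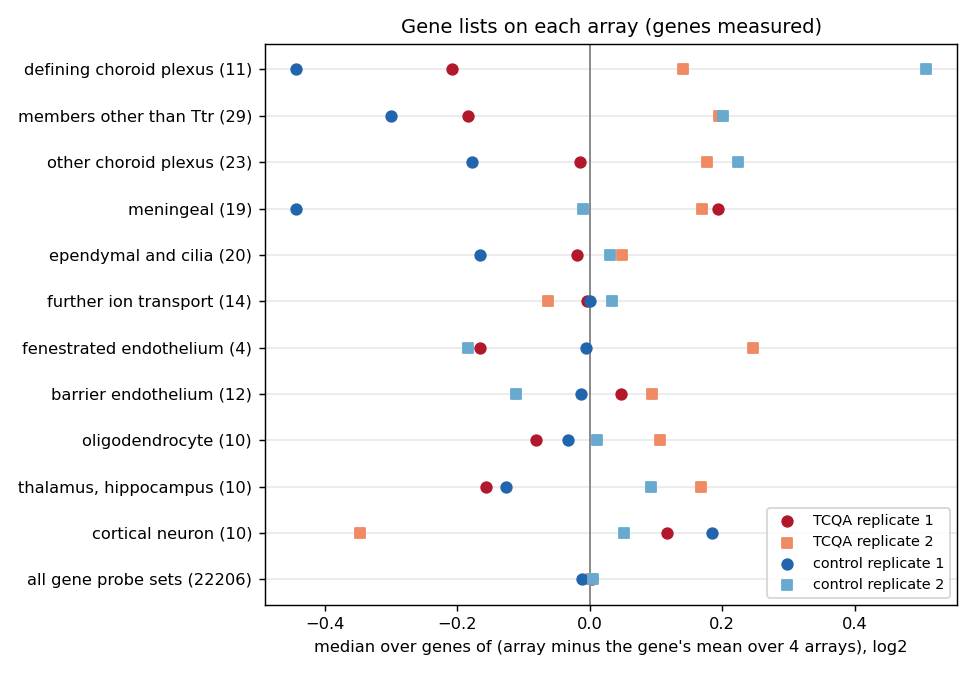
Median over the genes of each list of the array's log2 signal minus the gene's mean over the 4 arrays (horizontal axis), with the number of measured genes in brackets. The 3 choroid plexus lists run from control replicate 1 through TCQA replicate 1 and TCQA replicate 2 to control replicate 2, the meningeal list is low in control replicate 1 only, and all gene probe sets lie near 0.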

How the data were processed

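Per the labels' protocols, RNA (100 ng) was labelled with the WT PLUS kit and hybridised to Clariom S mouse arrays, and the authors made the deposited log2 signals with SST-RMA in Transcriptome Analysis Console 4.0.2. Detection calls were not used, and they name no genome build. The number of arrays limits the precision.

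Control probe sets (6640) were set aside and 22206 gene probe sets kept, of which 19572 had 1 symbol from the platform annotation, 0 several, and 2634 were not named here. No symbol needed updating (0 through the gene identifiers). The brightest probe set of a symbol was used, and each member had 1. Groups came from the titles. TCQA minus control was fitted with limma 3.58.1 (R 4.3.3; lmFit, eBayes, two-sided) over all gene probe sets, with 4.23 prior and 2 residual degrees of freedom. In 10 simulations of this comparison on 22206 genes, 58.4% of genes changed by 1.5 and 98.3% of those changed by 3 passed the adjusted threshold. The simulated spread was drawn from the prior over all probe sets. The median SD within groups was 0.35 for the members and 0.19 for all probe sets, so these shares do not hold for the members.

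Members and lists were chosen with earlier results of these data known. Named were all members, genes among the 4 widest in range of other lists, and genes outside the lists with the array order of Ttr and a range of at least 2, of which there were 0. Spint2 was chosen after its values were seen. Alternatives were run for the differences of members with a range of at least 1 or an unadjusted p under 0.05.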

Additional observations from a re-analysis of the deposited data

How the results depend on the processing

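Quantile normalization and centring of the arrays each left 1 member past the unadjusted threshold and a median difference between -0.03 and -0.02. Array weights, an intensity trend in the prior and no moderation of the variance each left 1 member past as well. These 3 settings could not move the median difference, as the weights were equal within each group. Using all probe sets of a symbol changed nothing, since each member had 1. With centring 18 and with quantile normalization 19 members were lowest in control replicate 1, and 15 with either were highest in control replicate 2. Among the 11 members at or above the median signal, 8 were lowest in control replicate 1, 4 highest in control replicate 2, and 10 higher in replicate 2 of both groups, with fewer genes counted, and their median difference was 0.23 in place of -0.02. With 1 array left out, whose lone partner is assumed to vary like the other group, 0 to 4 of all probe sets passed the adjusted threshold (4 without TCQA replicate 1), 1 to 7 members the unadjusted one, and the median member difference lay between -0.29 and 0.43. The differences lay between -2.82 and 6.11 for Ttr, -1.66 and 1.36 for Kl, -0.33 and 1.5 for Kcnj13, -0.45 and 1.13 for Clic6, -0.83 and 0.79 for Ace, -0.41 and 0.81 for Cldn1, -0.74 and 0.61 for Folr1, -0.78 and 0.44 for Calml4, -0.85 and 0.33 for Slc4a5, -0.56 and 0.60 for Lbp and -0.28 and 0.77 for Aqp1. These reversals come from the arrays left out. Car14 lost its unadjusted call without any 1 array. On means of linear signals the difference was -1.25 for Ttr and -0.089 for Lbp. The labels share replicate numbers, but same-numbered arrays did not deviate together over all genes (correlation 0.05). Among the members, 22 of 30 were higher in replicate 2 of both groups (26.4% of all probe sets). Whether same-numbered arrays share more than a number was not tested. With the replicate block, 1425 probe sets and 1 member passed the unadjusted threshold, and 0 the adjusted one. Dim signal limits 15 of the 30 genes, which lay under the negative control median on each array.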
